A study of Mus musculus with 6 samples.

Results

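Myelin genes of the peripheral nerve were examined in cochleae of mice with an altered Hgf gene. The 8 members were Egr2, Pmp22, Mbp, Prx, Mag, Cnp, Ncmap and Mal, each found as the count row whose Ensembl identifier carries that symbol, 8 of 48709 mouse gene rows. Total RNA of the whole cochlea was sequenced in 3 wild-type mice (Hgf+/+) and 3 homozygous knock-in littermates (Hgf del10Neo/del10Neo), a mouse model of the recessive deafness DFNB39. The knock-in allele lacks 10 bp of Hgf intron 5 and, by its name, carries a Neo cassette. The labels name no promoter or Cre line, so the allele is not tied to a cell type. Ages ran from 5 to 27 weeks per the labels' protocols, but which age, sex or litter belongs to which library is not given in the sources used here.

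Schwann cells wrap axons of the spiral ganglion neurons up to the glial transition zone in the auditory nerve, where oligodendrocytes take over. The transcription factor EGR2 switches Schwann cells to the myelinating state together with SOX10. PMP22 and MBP are proteins of compact myelin, while periaxin, MAG and CNP belong to the uncompacted membranes and to the contact with axon and basal lamina. Mbp, Mag, Cnp and Mal are also genes of oligodendrocytes, Egr2 is also an immediate early gene, Pmp22 is made by many cells outside the nerve, and Mal is made by T cells and by some epithelia. A cochlea with a stump of nerve root can therefore hold RNA of these genes from more than 1 cell type.

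Libraries held between 24005234 and 42312291 mouse gene counts. Hgf, the targeted gene, measured 15.4, 16.3 and 15.2 CPM (the share of a library's counts, scaled between libraries by TMM) in the wild-type libraries against 9.24, 10.4 and 10.5 CPM in the 3 knock-in mice. The groups did not overlap, and the log2 fold change was -0.63 (SE 0.111; edgeR adjusted p = 0.246). Neo cassette reads numbered 71 and 199 in knock-in replicates 1 and 2 but 5 in the library labelled knock-in replicate 3, within the 5 to 10 of the wild-type libraries, although its Hgf level was that of the other knock-ins. Members, scores and some list medians are given with and without it. The RNA Xist, made from the inactive X, had 25380 counts in wild-type replicate 2 and 17489 in knock-in replicate 3, and at most 30 in the other 4 libraries, so each group held 1 library with abundant Xist. Sox10, listed as a myelin transcription factor gene, was present in every library, between 25.1 and 35.9 CPM. Which cochlear cells made it was not tested. Pmp2, a lipid-binding myelin protein gene, had 2 counts in wild-type replicate 2 and 0 in the others.

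None of the 8 members passed the threshold between genotypes, an adjusted p under 0.05 in edgeR's quasi-likelihood test over 20733 genes. The same test called 0.0338% of all genes tested (0.0241% lower and 0.00965% higher in knock-in), and DESeq2 on the same counts also called 0 members. For 3 members, Egr2, Prx and Cnp, the knock-in values all lay under the lowest wild-type value, and the unadjusted p was under 0.05. No member separated in the other direction. A full separation was found for 4.01% of all genes tested in the lower and 4.71% in the higher direction (8.72% in either), and an unadjusted p under 0.05 for 1.96% in the lower and 2.54% in the higher direction (4.5% in either). The other 5 members overlapped between the genotypes. The median log2 fold change of knock-in over wild-type was -0.17 over the 8 members and 0.00082 over all genes tested. For any lower level in bulk RNA, fewer cells of a type and less RNA per cell cannot be told apart.

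**Figure D1:**
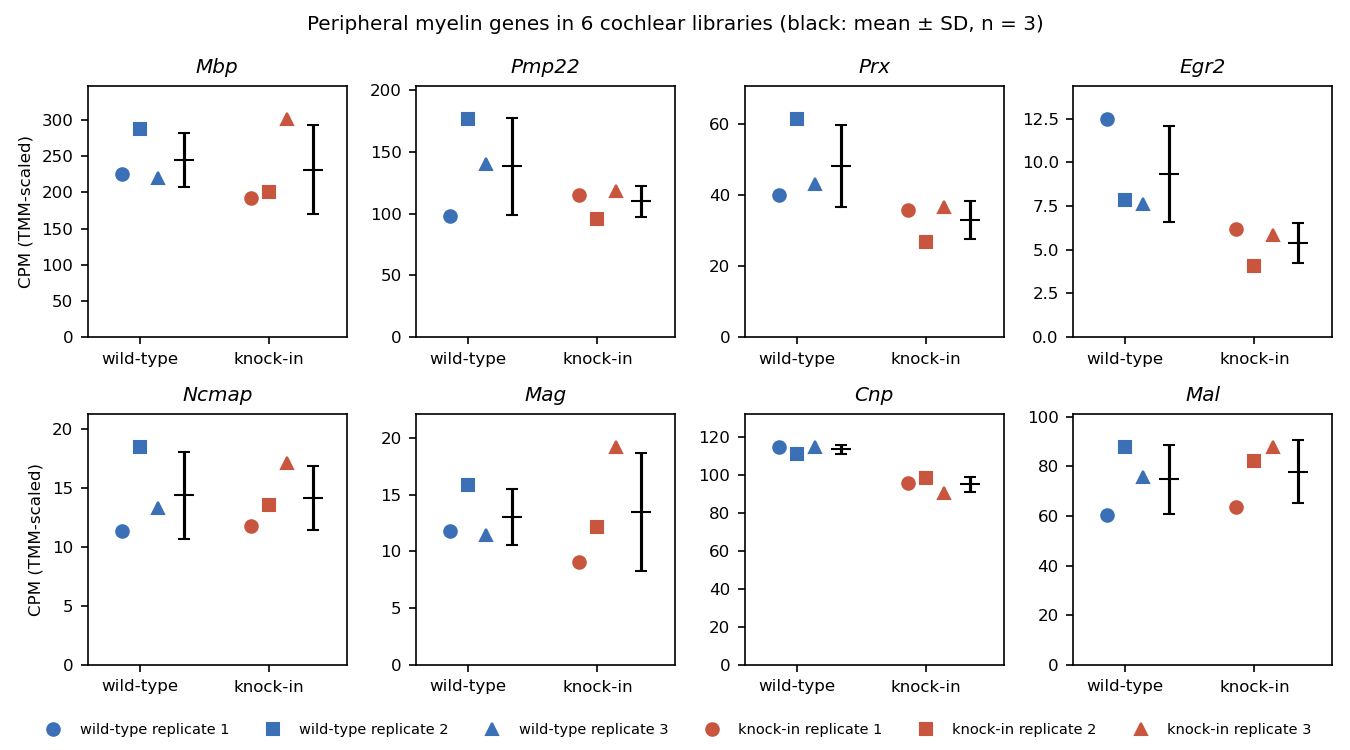
TMM-scaled CPM (vertical axis) of the 8 members in each library, grouped by genotype; symbols mark replicates and the black bars give mean ± SD (n = 3). Egr2, Prx and Cnp show no overlap between genotypes, whereas Mbp and Mag have their highest library among the knock-ins, at 302 and 19.2 CPM.

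RefSeq windows before the start of 7 members were searched for the letters bound by 2 kinds of myelin gene factor, since Egr2 itself is a member. The letters were ACAAAG for SOX proteins and GNGTGGGNG for EGR proteins, on both strands, in the 250 bases before each annotated start (GRCm38.p6). A SOX match was present in 3 of the 17 member windows, which were 2 sites in 2 genes since overlapping Mag windows share 1 site, and in 16.5% of 32851 windows of all genes, and an EGR match in 1 of 17 and in 12.7%. The windows of Prx (chr7:27499074-27499323, forward strand), of Cnp (chr11:100574689-100574903, forward strand, ending where its GENCODE gene model begins) and of Mag (chr7:30914923-30915172, reverse strand) are shown because they hold these matches, which stand in capitals. The sequences run 5′ to 3′ on the strand of the gene.
Prx: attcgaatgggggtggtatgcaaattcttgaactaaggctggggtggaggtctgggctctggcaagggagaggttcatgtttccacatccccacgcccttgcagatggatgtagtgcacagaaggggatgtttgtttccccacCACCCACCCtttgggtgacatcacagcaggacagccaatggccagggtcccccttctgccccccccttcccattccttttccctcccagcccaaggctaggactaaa
Cnp: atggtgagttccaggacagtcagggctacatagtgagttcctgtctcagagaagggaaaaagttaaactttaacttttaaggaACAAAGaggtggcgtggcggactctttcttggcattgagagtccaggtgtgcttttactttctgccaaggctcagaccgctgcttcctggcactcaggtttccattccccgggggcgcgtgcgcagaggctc
Mag: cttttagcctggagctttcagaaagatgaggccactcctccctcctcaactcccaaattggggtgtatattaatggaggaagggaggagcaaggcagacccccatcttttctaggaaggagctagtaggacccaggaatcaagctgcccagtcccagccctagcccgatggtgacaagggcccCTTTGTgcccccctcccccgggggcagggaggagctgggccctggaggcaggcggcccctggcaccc
The capitals mark an EGR match on the opposite strand in Prx, a SOX match on the gene's own strand in Cnp and a SOX match on the opposite strand in Mag. A match describes letters only. Of these genes, Prx and Cnp separated between genotypes and Mag did not, so members with and without a separation both held a match. The E-box letters CANNTG were also searched and are not marked. They were present in 11 of the 17 member windows and in 66.2% of all windows.

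Egr2 (ENSMUSG00000037868, chromosome 10, 67535475 to 67542188, forward strand), the zinc finger factor that drives myelination, had the largest fold change of the 8. It measured 12.5, 7.84 and 7.62 CPM in the 3 wild-type mice against 6.22, 4.1 and 5.85 CPM in the 3 knock-in mice. All knock-in values were below all wild-type values, and wild-type replicate 1 stood above the rest. The means were 9.32 ± 2.76 and 5.39 ± 1.13 CPM (SD, n = 3 in each genotype). The log2 fold change was -0.78 (SE 0.232; edgeR adjusted p = 0.966), a level 1.72-fold lower in knock-in that did not pass. Egr2 was the least counted member, with 120 to 319 counts per library, so counting alone gives a coefficient of variation of 9.13% at the lowest count, against 29.6% between wild-type and 21.1% between knock-in libraries. Immediate early genes were highest in the same wild-type replicate 1. Egr1 stood at 102, 17.6 and 34.9 CPM in the 3 wild-type mice, and Fos at 80.0, 10.9 and 10.5 CPM. The summed level of the 12 immediate early genes listed was 619 CPM there and 200.1 to 255 CPM in the other 5 libraries. Without wild-type replicate 1 the log2 fold change of Egr2 was -0.52, and without knock-in replicate 3 it was -0.84. The part of the immediate early response in the Egr2 difference was not tested.

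Pmp22 (ENSMUSG00000018217, chromosome 11, 63128982 to 63159547, forward strand) encodes a tetraspan membrane protein of compact myelin and is the gene duplicated in the commonest inherited demyelinating neuropathy. Its level was 98.2, 177 and 140.4 CPM in the 3 wild-type mice and 115, 96.0 and 119 CPM in the 3 knock-in mice. The groups overlapped because wild-type replicate 1 was near the lowest knock-in library. The log2 fold change was -0.33 (SE 0.19, 95% interval -0.76 to 0.09; edgeR adjusted p = 0.966). It ranged from -0.53 without wild-type replicate 1 to -0.12 without wild-type replicate 2, and it was -0.40 without knock-in replicate 3.

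Mbp (ENSMUSG00000041607, chromosome 18, 82475146 to 82585637, forward strand), which encodes myelin basic protein of the cytoplasmic face of compact myelin, did not separate the genotypes. Values were 226, 287 and 219.9 CPM in wild-type and 192, 200.4 and 302 CPM in knock-in mice. Knock-in replicate 3 was the highest of all 6, and the other 2 knock-in libraries were the lowest. The log2 fold change was -0.08 (SE 0.184, 95% interval -0.49 to 0.33; edgeR adjusted p = 0.986), and without knock-in replicate 3 it was -0.32. The gene also has the longer Golli transcripts of other cells, which counts per gene do not separate.

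Prx (ENSMUSG00000053198, chromosome 7, 27499324 to 27520214, forward strand) encodes periaxin, which links the Schwann cell membrane through DRP2 to the basal lamina and is, among the 8, the member most particular to peripheral myelin. It measured 39.9, 61.3 and 43.0 CPM in the 3 wild-type mice against 35.6, 26.8 and 36.5 CPM in the 3 knock-in mice. The lowest wild-type and the highest knock-in library were close, 39.9 and 36.5 CPM, and wild-type replicate 2 and knock-in replicate 2 lay furthest apart. The means were 48.1 ± 11.6 and 33.0 ± 5.39 CPM (SD, n = 3 in each genotype). That is a level 1.46-fold lower in knock-in, or -0.54 on the log2 scale (SE 0.179; edgeR adjusted p = 0.966). Without wild-type replicate 2 it was -0.33, and without knock-in replicate 3 it was -0.63. An antisense gene model, Gm15541, shares up to 127 exonic bases with Prx but had at most 28 counts in a library. Drp2, the gene of the partner of periaxin, chosen here after its values were seen, was at 38.8 to 60.1 CPM in wild-type and 40.6 to 49.0 CPM in knock-in, a log2 fold change of -0.12.

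Cnp (ENSMUSG00000006782, chromosome 11, 100574904 to 100591729, forward strand), the gene of the enzyme CNPase that keeps cytoplasmic channels of myelin open, had the least spread of the 8. Its values were 115, 111 and 115 CPM in wild-type and 95.8, 98.4 and 90.5 CPM in knock-in mice. The 2 groups were narrow and did not overlap. The means were 113 ± 2.42 and 94.9 ± 4.03 CPM (SD, n = 3 per group), 1.19-fold lower in knock-in, with a log2 fold change of -0.26 (SE 0.0879; edgeR adjusted p = 0.966). Leaving out any 1 library kept it between -0.28 and -0.22. Cnp overlaps Dnajc7, a chaperone gene on the opposite strand, over up to 154 exonic bases. No source used here says whether the counting used strand, so reads of the pair in these bases may not be separable. Dnajc7 itself was at 50.2 ± 3.28 CPM in wild-type and 40.6 ± 9.29 CPM in knock-in (SD, n = 3 per group), with overlapping groups.

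Mag (ENSMUSG00000036634, chromosome 7, 30899176 to 30914873, reverse strand) encodes the sialic acid binding adhesion protein that faces the axon. It measured 11.8, 15.9 and 11.5 CPM in the 3 wild-type mice, and 9.09, 12.2 and 19.2 CPM in knock-in mice. The knock-in libraries held both the lowest and the highest value of the 6. Their coefficient of variation was 38.6%, the widest of any member in either group. The log2 fold change was 0.04 (SE 0.249, 95% interval -0.52 to 0.60; edgeR adjusted p = 0.994), and without knock-in replicate 3 it was -0.30.

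Ncmap (ENSMUSG00000043924, chromosome 4, 135369576 to 135398227, reverse strand), the gene of a glycoprotein of uncompacted myelin, measured 11.4, 18.5 and 13.3 CPM in wild-type and 11.8, 13.6 and 17.2 CPM in knock-in mice. Mal (ENSMUSG00000027375, chromosome 2, 127633226 to 127656695, reverse strand), the gene of a proteolipid of lipid rafts and membrane sorting, measured 60.3, 88.0 and 75.9 CPM in wild-type and 63.5, 82.3 and 87.8 CPM in knock-in mice. For both genes the 2 groups covered nearly the same range. The log2 fold change was -0.03 for Ncmap (SE 0.197, 95% interval -0.47 to 0.41) and 0.06 for Mal (SE 0.16, 95% interval -0.30 to 0.42), with edgeR adjusted p of 0.994 and 0.987. Differences as large as these interval ends cannot be told from none with 3 mice a group. Without knock-in replicate 3 the log2 fold changes were -0.19 for Ncmap and -0.04 for Mal.

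**Figure D2:**
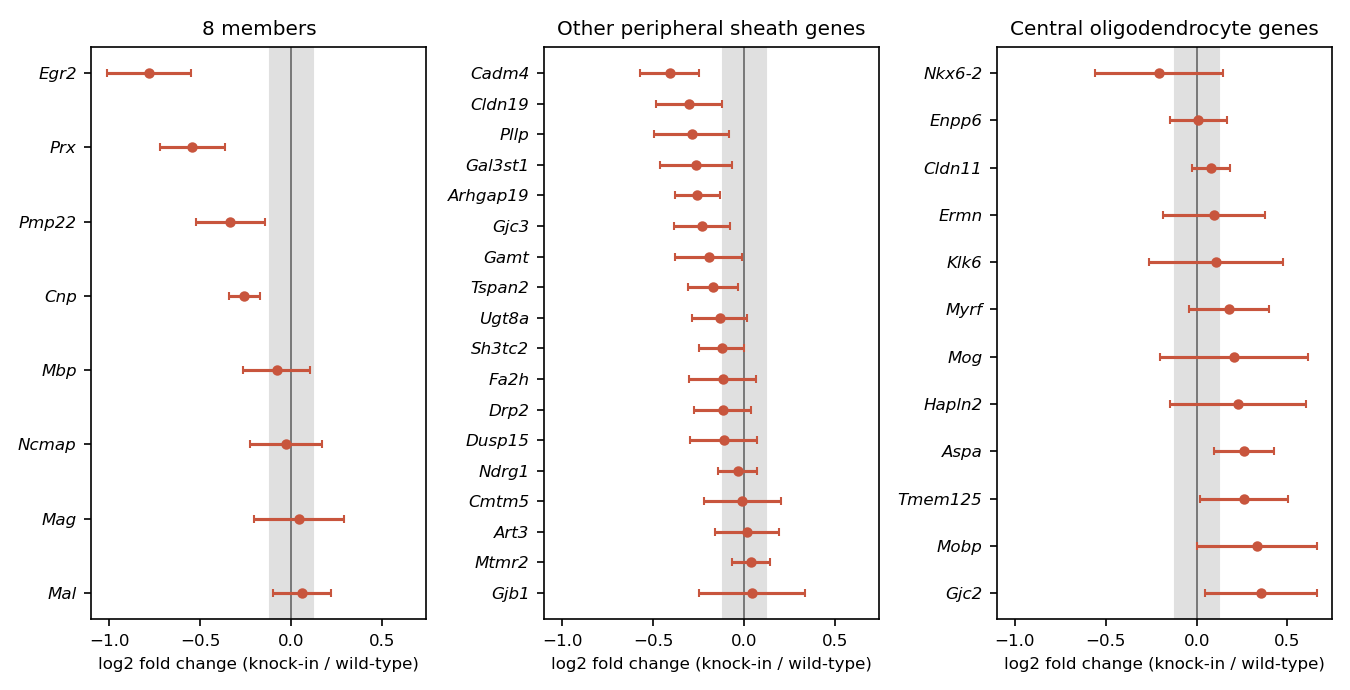
Log2 fold change of knock-in over wild-type (horizontal axis) with its standard error for the 8 members, other peripheral sheath genes reported here and the central oligodendrocyte genes; the grey band holds the middle quartiles of all genes tested, -0.12 to 0.12. Egr2, at -0.78, and Prx, at -0.54, lie furthest left among the members, and 11 of the 12 oligodendrocyte genes lie right of 0.

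Per kilobase of exon, the members covered a wide range of levels. In wild-type cochlea Pmp22 was highest at 58.9 ± 16.8 RPKM (CPM per kilobase of exon; SD, n = 3), followed by Cnp at 31.2 ± 0.664, Mbp at 28.8 ± 4.38 and Mal at 26.9 ± 5.0 RPKM. The last 3 did not differ beyond their spread. Prx followed at 8.62 ± 2.08 and Ncmap at 6.47 ± 1.67 RPKM (SD, n = 3 each), and Prx was the higher in each wild-type library. Mag at 3.2 ± 0.605 and Egr2 at 2.74 ± 0.811 RPKM (SD, n = 3 each) differed by less than their spread. In knock-in cochlea the order began with Pmp22 at 46.7 ± 5.2 RPKM and then Mal at 28.0 ± 4.58, Mbp at 27.3 ± 7.18 and Cnp at 26.1 ± 1.11 RPKM (SD, n = 3 each). Exon lengths were the union over all annotated transcripts, which lowers the values of genes with long rare transcripts such as Mbp.

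The 6 libraries fell into different orders for different members. Egr2 was highest in wild-type replicate 1, Prx and Pmp22 in wild-type replicate 2, and Mbp and Mag in knock-in replicate 3. Knock-in replicate 2 was the lowest library for Egr2, Prx and Pmp22, and there the mean of the neuron list was lowest as well, 0.44 log2 units below the mean of the 6 libraries. Mbp, Mag, Ncmap and Mal were instead highest in the 2 libraries with abundant Xist, wild-type replicate 2 and knock-in replicate 3. Both of these libraries lay above the other 4 for these 4 members, as they did for 10.8% of all genes tested. In a fit with a term for Xist, chosen after seeing the data, the log2 difference of the Xist-high libraries was 0.66 (SE 0.149) for Mag, 0.51 (SE 0.122) for Ncmap, 0.49 (SE 0.102) for Mbp and 0.32 (SE 0.13) for Mal. None of the 8 members passed for this term (edgeR adjusted p = 0.105 for Mbp, the lowest), where 0.328% of all genes did, and 6 of 8 were higher at an unadjusted p under 0.05, against 6.43% of all genes. With that term in the fit the log2 fold changes of genotype were -0.78 for Egr2, -0.52 for Prx and -0.26 for Cnp. Whether sex or another feature of these 2 mice goes with these levels cannot be told apart.

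**Figure D3:**
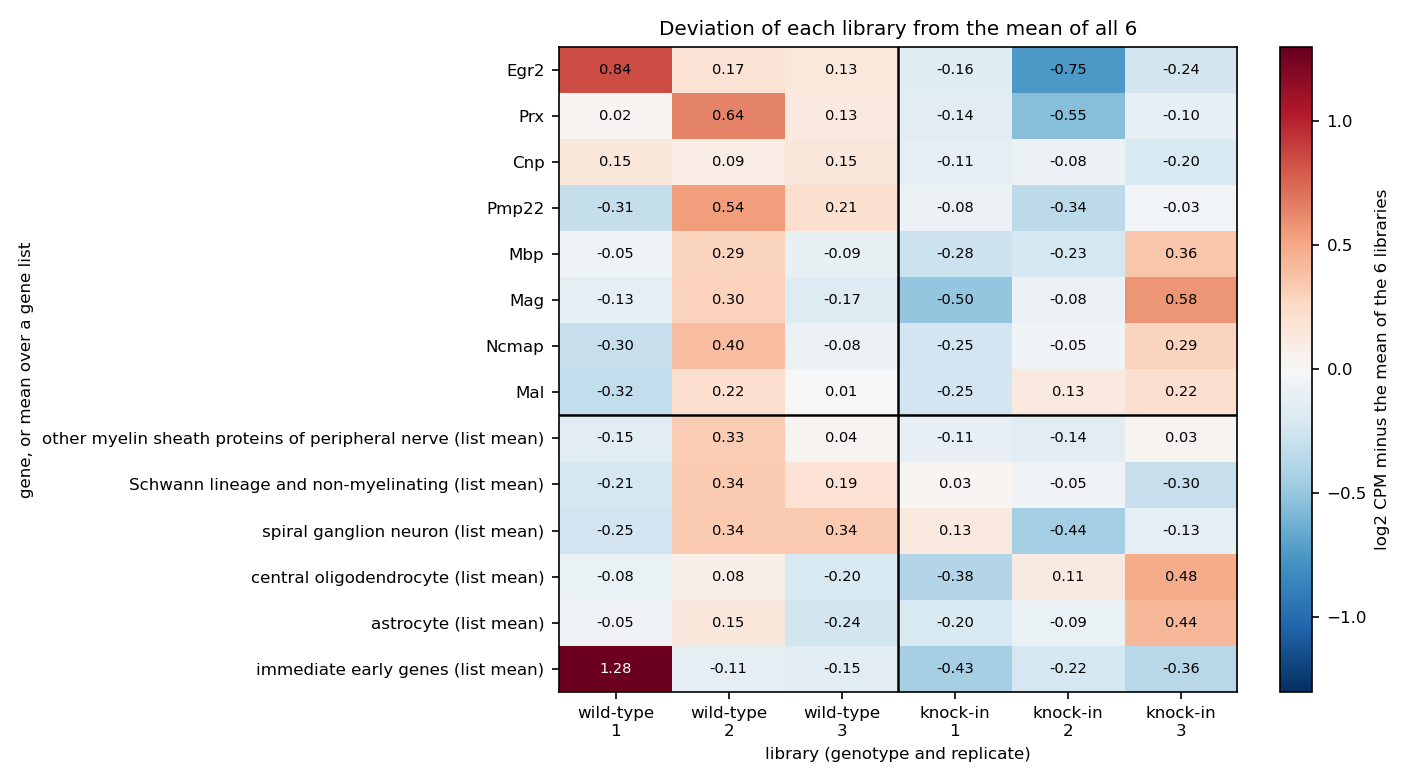
Log2 CPM of each member, and the mean of 6 gene lists, in each library (columns), as the difference from the mean of the 6 libraries; red is above and blue below that mean. Mag reaches 0.58 and the central oligodendrocyte list 0.48 in knock-in replicate 3, and Egr2 reaches 0.84 and the immediate early list 1.28 in wild-type replicate 1.

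The summed levels of listed central glia markers were highest in knock-in replicate 3, as were Mbp and Mag. Of 14 oligodendrocyte genes listed, 12 passed the filter on low counts, 11 were positive and 1 negative in log2 fold change (median 0.19), and none passed the threshold. Without knock-in replicate 3, 5 were positive and 7 negative, with a median of -0.13. Their summed level was 169 to 197 CPM in wild-type and 163 to 247 CPM in knock-in mice, the highest in replicate 3. Cldn11, chosen here after its values were seen, had the highest level of the list and weighs most in this sum. Its mean was 95.9 CPM in the 2 Xist-high libraries and 85.4 CPM in the other 4. Mobp, an oligodendrocyte myelin gene chosen here after its values were seen, was at 37.5, 40.3 and 30.5 CPM in wild-type and 22.1, 43.5 and 70.9 CPM in knock-in mice. Mog, another gene chosen so, ranged from 0.936 CPM in the first to 3.68 CPM in the last knock-in mouse. Knock-in replicates 1 and 3 were thus the lowest and the highest library for Mobp and Mog, as they were for Mag. The defining oligodendrocyte genes Opalin and Olig2 were near 0, with at most 4 and 9 counts in a library. The astrocyte list, with Gfap, Aqp4 and 4 others, summed to 211 to 253 CPM in wild-type and 198 to 291 CPM in knock-in, again highest in replicate 3, and its median log2 fold change was 0.15 with all libraries and -0.10 without that library. Which cochlear cells made the listed genes, Cldn11 and Gja1 among them, was not tested, so neither sum can be read as central glia alone. The part of central glia in the levels of Mbp, Mag and the other shared genes was not tested.

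Other proteins of the peripheral sheath were described beside the members from a list of 21 genes, of which 20 passed the filter and 16 had negative log2 fold changes. The median was -0.13, and none passed in either direction (2 had an unadjusted p under 0.05, both lower, against 1.96% of all genes tested, and 1 separated fully with knock-in lower, against 4.01%). The median was -0.04 without wild-type replicate 2, with 11 of 20 negative, and -0.20 without knock-in replicate 3, with 20 of 20 negative. Cadm4, the gene of the adhesion protein with which Schwann cells hold the axon, was at 16.5, 24.0 and 16.3 CPM in wild-type and 15.6, 13.4 and 13.8 CPM in knock-in, with a log2 fold change of -0.41 that was -0.20 without wild-type replicate 2. Arhgap19, which encodes a GTPase activating protein, had -0.26.

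Signals between axon and Schwann cell held Lgi4, whose unadjusted p of 0.00332 (edgeR) was the smallest among the named genes of the Schwann cell lists. Lgi4, which encodes a secreted protein that Schwann cells need for myelination, was at 5.63, 7.0 and 5.71 CPM in wild-type and 4.41, 3.69 and 3.47 CPM in knock-in mice. Dhh, the gene of desert hedgehog, a Schwann cell signal to the sheath around nerve bundles, was at 5.02, 6.8 and 5.66 CPM in wild-type and 4.44, 3.89 and 3.9 CPM in knock-in. Neither gene overlapped between the groups, and their log2 fold changes were -0.66 (SE 0.17) and -0.51 (SE 0.168), with an edgeR adjusted p of 0.966 each. Nrg1, the axonal ligand that instructs myelination, had -0.25, between -0.40 and -0.16 with 1 library left out (knock-in replicate 1 or 2). Of the 12 genes of this list 9 had negative fold changes, and none passed. Full separation with knock-in lower was found for 2 of the 12, against 4.01% of all genes tested. Lgi4 and Dhh were named for their small p, so their separation is not independent of that choice. Its median was -0.12 (-0.06 without knock-in replicate 3), and the receptor genes Erbb2 and Erbb3, chosen after their values were seen, were at 0.07 and 0.13.

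Cofactors of EGR2 and other myelin transcription factors had a median of -0.03 over 12 genes, none of which passed. Nab2, which encodes a corepressor that binds EGR proteins, was at 11.1, 10.6 and 11.3 CPM in wild-type and 8.57, 9.18 and 10.1 CPM in knock-in, without overlap (log2 fold change -0.25). It was named for its small p, and 1 of the 12 genes separated with knock-in lower, against 4.01% of all genes tested. Nfatc4 had -0.19 (-0.10 without knock-in replicate 1) and Pou3f2 had -0.25 (-0.15 without wild-type replicate 2). Sox10, given here because SOX10 acts with EGR2, had -0.13. Genes of immature and repair Schwann cells had a median of -0.02 over 16, with Gap43 at -0.76, Ngfr, the p75 neurotrophin receptor gene, at -0.64, and Pax3 at -0.45. Both groups overlapped for Gap43 and Ngfr, and Ngfr ran from -1.11 without knock-in replicate 1 to -0.36 without wild-type replicate 2. Pax3 did not overlap, but it had only 13 to 37 counts per library and was named for a small p. It was the 1 gene of the 16 that separated with knock-in lower, against 4.01% of all genes tested. Gap43 and Ngfr are also genes of neurons or other glia. None of these genes passed.

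Genes of the Schwann lineage and of non-myelinating cells had a median of -0.11 over 13, none of which passed, and of 0.04 without wild-type replicate 2. Gfra3, a receptor gene of the GDNF family, was at 1.33, 1.95 and 2.96 CPM in wild-type and 1.27, 1.13 and 0.347 CPM in knock-in (log2 fold change -1.17, edgeR adjusted p = 0.966). These low values did not overlap, though the nearest were close, and Gfra3 was named for a small p. Of the 13 genes 1 separated with knock-in lower, against 4.01% of all genes tested. Fabp7 had -0.40 and Col28a1, a collagen gene of Schwann cells at nodes, had -0.85, both with overlapping groups. Fabp7 was at -0.17 without wild-type replicate 3. Col28a1 was at -0.46 without wild-type replicate 2, or -1.44 when knock-in replicate 1 was left out. The mean log2 CPM of the 8 members stood 1.37, 1.16 and 1.02 above the mean of this list in the wild-type libraries and 0.92, 0.97 and 1.59 above it in the knock-in libraries. The means were 1.18 ± 0.179 and 1.16 ± 0.369 (SD, n = 3 per group), a difference of -0.02 that changed with the library left out. It was 0.10 without knock-in replicate 1, 0.07 without wild-type replicate 1 and -0.11 without wild-type replicate 3, with overlapping groups each time. The groups also overlapped without wild-type replicate 2 (-0.04) or knock-in replicate 2 (0.07). No test was made on these few values. Without knock-in replicate 3 the difference was -0.24, and both remaining knock-in values lay below the wild-type values, 0.97 against 1.02 at the nearest.

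Genes of the node, the paranode and axonal adhesion had a median of -0.07 over 16 (0.01 without wild-type replicate 2). Epb41l3, a membrane scaffold gene, had -0.33, Cadm3 had -0.32 (-0.20 without knock-in replicate 2) and Gldn, the gene of gliomedin that Schwann cells place at nodes, had -0.29 (-0.15 without wild-type replicate 2). Basal lamina genes and receptor genes, listed together, had a median of -0.05 over 12 (0.04 without wild-type replicate 2). Among them Gpr37l1 was at -0.31, Utrn at -0.12 and Adgrg6, an adhesion receptor gene that starts myelination, at 0.16. Gpr37l1 was at -0.19 and Utrn at -0.04 without wild-type replicate 2. Adgrg6 was at 0.10 with knock-in replicate 2 left out. Adgrg6 was at 82.4, 84.0 and 83.5 CPM in wild-type and 88.6, 101 and 89.9 CPM in knock-in, above all wild-type libraries, a direction opposite to that of Egr2. Of these 12 listed genes 1 separated in each direction, against 4.01% of all genes tested in the lower and 4.71% in the higher. They were Gpr37l1 and Adgrg6, both receptor genes and both named for a small p. No gene of either list passed.

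Cholesterol and myelin lipid genes, which many cell types share, had a median of -0.15 over 23 tested, with 17 negative and 6 positive fold changes and none past the threshold. Hmgcs1, an early enzyme gene of cholesterol synthesis, had -0.40, Cyp51 had -0.28 and Scd2, a fatty acid desaturase gene, had -0.27. For 6 of the 23 genes, Cyp51 and Scd2 among them, the genotypes separated fully, with knock-in lower, against 4.01% of all genes tested. At an unadjusted p under 0.05 there were 3 lower and 1 higher gene, against 1.96% and 2.54% of all genes. The higher gene was Fasn, the fatty acid synthase gene, chosen here after its values were seen, at 266, 319 and 237 CPM in wild-type and 393, 252 and 802 CPM in knock-in mice (log2 fold change 0.82), with overlapping groups and the highest value in knock-in replicate 3. Hmgcs1 overlapped, at 65.7 to 81.7 CPM in wild-type and 49.3 to 66.3 CPM in knock-in.

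Genes of the neurons that these Schwann cells wrap were mostly negative in fold change, but their summed level overlapped between genotypes. Of 16 spiral ganglion neuron genes, 15 were negative in log2 fold change (median -0.29), and none passed the threshold. Nefh, the heavy neurofilament gene, and Tubb3, a neuronal tubulin gene, each had -0.42, and without knock-in replicate 2 they had -0.23 and -0.27. The list median was -0.16 without that library. The list summed to 841 to 1192 CPM in wild-type and 689 to 976 CPM in knock-in mice. Relative to the mean of the neuron list, the mean log2 CPM of the members was 0.27, 0.03 and -0.27 in wild-type and -0.31, 0.24 and 0.28 in knock-in libraries. The knock-in minus wild-type difference on this scale was 0.06, and it was -0.08 without wild-type replicate 3, -0.05 without knock-in replicate 3 and 0.25 without knock-in replicate 1. The part of the amount of nerve in a dissection was not tested.

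Lists of other tissues were read beside the members. T cell genes had a median of 0.03 over 10 (Cd8a at 0.38, Cd28 at -0.30 and Il7r at -0.21), beside Mal at 0.06, and ran from -0.09 without wild-type replicate 2 to 0.21 without wild-type replicate 1. Skeletal muscle genes had -0.25 over 10 (Myh4 at -0.58, Mylpf at -0.30 and Ckm at -0.25) and -0.0086 without wild-type replicate 2. Erythroid genes had -0.16 over 10 (Slc4a1 at -0.30 and Klf1 at -0.19) and 0.0057 without wild-type replicate 3. Fibroblast genes had 0.03 over 8 (Fbln1 at -0.28, Col1a2 at -0.24 and Dcn at 0.08) and -0.17 without knock-in replicate 3. Adipocyte genes had 1.57 over 10 (Cidec at 2.08, Pparg at 0.74 and Plin1 at 1.61) and summed to 1436 CPM in knock-in replicate 3, against 151 to 539 CPM in the other libraries. Without that library their median was 0.76, with Cidec at 1.21, Pparg at 0.51 and Plin1 at 0.97. Among astrocyte genes Aldh1l1 had 0.77 (0.32 without knock-in replicate 3), Gja1 -0.20 and Fgfr3 0.18 (0.04 without wild-type replicate 3). Immediate early genes had -0.59 over 12 (Egr1 at -1.64, Nr4a1 at -1.35 and Fos at -1.88), and without wild-type replicate 1 the median was -0.16, with Egr1 at -0.68, Nr4a1 at -0.45 and Fos at -0.23. No gene of these lists passed the threshold.

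Left out 1 library at a time, the members divided into those that kept their direction and those that did not. Egr2, Prx, Cnp and Pmp22 had negative log2 fold changes in all 6 such fits. All 8 members were negative without wild-type replicate 1 or without knock-in replicate 3, and 4 of 8 without wild-type replicate 2, knock-in replicate 1 or knock-in replicate 2. Their median was -0.31 without knock-in replicate 3 and -0.03 without wild-type replicate 2. No member passed in any of the 6 fits.

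**Figure D4:**
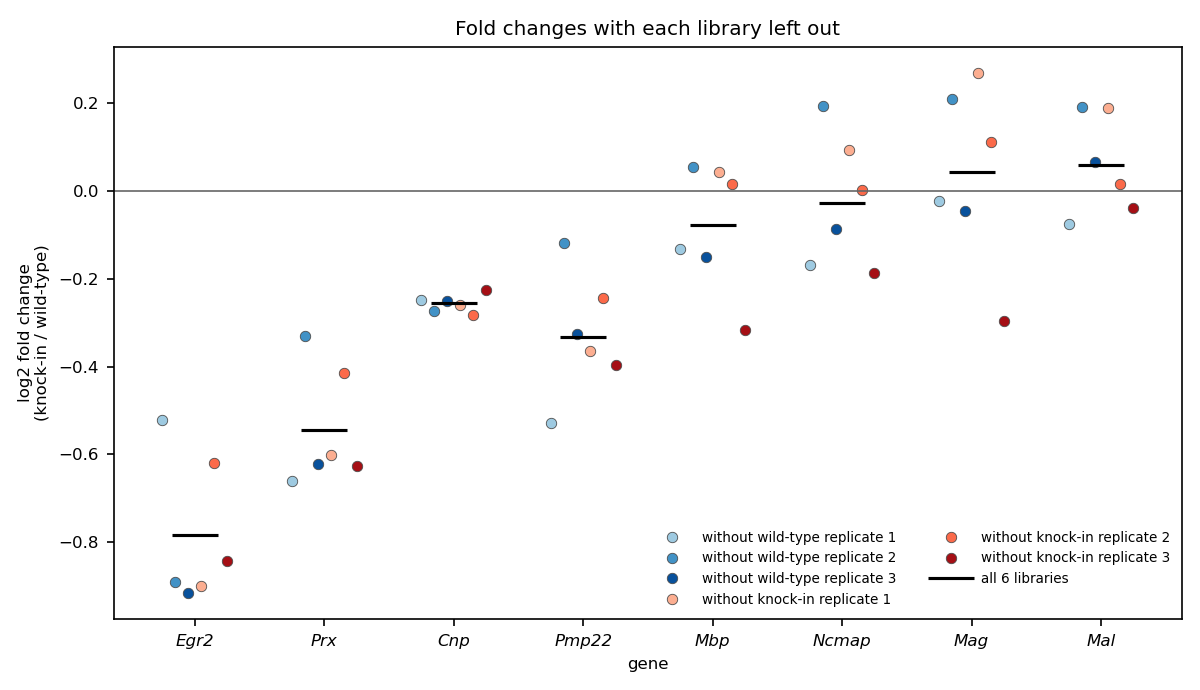
Log2 fold change of each member (horizontal axis: gene) with all 6 libraries (black bar) and with each library left out (points). Cnp stays between -0.28 and -0.22, while Mbp, Ncmap, Mag and Mal cross 0.

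In the authors' deposited table, Egr2 had a log2 fold change of -0.79 with an adjusted p of 0.227, and Prx had -0.55 with 0.493. The authors' deposited table gives an adjusted p of 0.94 for Cnp and of 0.9997 for the other 5 members. None of the 8 passed there either.

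Across all genes, the genes most like the mean profile of the 8 members over the 6 libraries were named by the height of Pearson's r, as a description of 6 points that share library depth and dissection. The 10 highest of 14671 genes were Sdc4, Gal3st1, Fxyd6, Pik3r3, Eln, Igf1, Apof, Selenos, Bcl2l14 and Tmem52, with r from 0.97 to 0.99, and 123 genes had r above 0.9. Gal3st1, which encodes the enzyme that makes the myelin lipid sulfatide, was the only gene of the sheath list among the 10, at 4.3, 5.72 and 4.4 CPM in wild-type and 3.5, 3.62 and 4.94 CPM in knock-in mice.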

How the data were processed

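The authors deposited whole-number read counts per gene for 6 cochlear libraries, not normalized, from paired reads of 93 bases of ribosome-depleted, randomly primed RNA, per the labels' protocols. STAR 2.5.2 and GRCm38 are named in the submitters' processing notes. No source used here names the counting program or says whether it used strand. The authors' deposited DESeq2 table gives log2 fold changes with standard errors, p-values, a mean signal (counts divided by size factors) and a test score per gene. The deposited table of regularized log values was not used.

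The 24 rows that were not mouse genes stayed out of library sizes and tests, and symbols came from GENCODE M21 (48349 of 48709 identifiers). Library totals were 24005234 to 42312291 counts. The test was that of edgeR 4.0.16 under R 4.3.3 (filterByExpr, TMM, glmQLFit and glmQLFTest with default options, group as the only term, two-sided) with Benjamini-Hochberg adjustment over 20733 genes and a threshold of 0.05. The standard error is the size of the log2 fold change over the root of F, and the 95% intervals use the test's degrees of freedom. Log2 CPM values use a prior count of 2. The procedure was tested on simulated data. No library was a repeat of another (chi-square per degree of freedom at least 21.0 over all pairs).

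The members and the gene lists were chosen with earlier results of these data known. Named genes are the members, Hgf, up to 3 genes per list with the smallest p, and the 10 genes most like the members. A few genes that this rule names are not reported here, but they remain in the counts and medians of their lists. The fit was repeated with RLE or upper-quartile scaling, without a filter, with a filter of 1 CPM in at least 3 libraries, with DESeq2 1.42.0, the bias-adjusted quasi-likelihood, a sex term from Xist, another prior count, and each library left out. Replicate numbers follow accession order and pair no samples. Promoter sequences are RefSeq's (GRCm38.p6).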

Additional observations from a re-analysis of the deposited data

How the results depend on the processing

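No paired analysis was possible because replicate numbers follow accession order and carry no pairing. The count of members past the threshold was 0 under all 13 alternatives, and 3 members with an unadjusted p under 0.05 became 2 to 4. The lowest edgeR adjusted p of a member in any of them was 0.118, for Egr2 with no filter on low counts. Over all genes, 7 were called in the fit reported, 76 with no filter, 28 with DESeq2, 11 with the sex term, and between 3 and 21 when 1 library was left out. The members' median log2 fold change was -0.18 to -0.15 under the other settings and -0.31 to -0.03 with a library left out, all within 1 pooled within-group SD (0.177) of the value reported. The direction was the same throughout for 64 of the 70 named genes. Most of these were named for a small p in the fit reported, which favours a kept direction. Among the members, Mbp, Ncmap, Mag and Mal changed direction. With a library left out, log2 fold changes were -0.32 to 0.054 for Mbp, -0.19 to 0.19 for Ncmap, -0.30 to 0.27 for Mag, -0.075 to 0.19 for Mal, -0.42 to 0.0079 for Il7r and -0.10 to 0.22 for Dcn; the cause was not tested. Chosen after seeing the data, leaving out each library was also run for the medians of the other lists and for the 2 scores: 3 list medians moved by more than the spread between libraries, those of cholesterol and lipid genes (-0.19 without wild-type replicate 1), oligodendrocyte genes (-0.13 without knock-in replicate 3) and astrocyte genes (-0.10 without that library). Hgf passed with no filter and with DESeq2 (adjusted p = 0.038 and 0.014), and Egr1, Cidec and Plin1 passed with no filter. Depth limits Egr2 most, at 120 counts in its lowest library.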
